A study of Mus musculus with 4 samples.

Results

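The genes described here are the mouse Hox genes of the 4 clusters together with the Meis and Pbx genes, whose proteins are DNA-binding partners of Hox proteins. They were taken from the array annotation by symbol alone, as every probe set with a single symbol Hoxa, Hoxb, Hoxc or Hoxd followed by a number, or with a single numbered Meis or Pbx symbol. This gave 63 probe sets of 39 genes, out of 45037 probe sets that are not array controls and 18193 genes with a probe set of 1 symbol. The samples were testes of 129 strain mice aged 2 dpp (days post partum), held in organ culture for 24 h in medium with fetal bovine serum. The 2 control samples received the vehicle dimethyl sulfoxide, and the 2 treated samples received WIN 18,446 at 1 µM, a compound known to block retinaldehyde dehydrogenases and with them the making of retinoic acid. RNA was read on Affymetrix Mouse Genome 430 2.0 arrays, 1 array per sample. The labels name no genotype beyond the strain and leave unsaid whether the 2 samples of a group stem from different animals or cultures. The p-values given below thus cover the spread between these samples alone, and that spread may be technical.

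Hox genes encode homeodomain transcription factors and lie in clusters in which the order of the genes follows the order of their expression along the body axis. Within each cluster they carry numbers from 1, at the end expressed in the hindbrain and neck, to 13, at the end expressed in the tail and genital region, and genes of equal number in different clusters are paralogues. Meis and Pbx proteins belong to the TALE class of homeodomain proteins and form complexes with Hox proteins on DNA, which raises the precision with which sites are chosen. Retinoic acid is a classical activator of Hox genes in the embryo, chiefly of the low-numbered ones, and acts through receptors bound to paired copies of a short half-site, AGGTCA or a close variant.

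Hox genes numbered 3 and 8 to 10 were above background most often. Levels are log2 values as normalized by the authors, and the highest reading of 27 probe sets for Bacillus subtilis control transcripts, which have no mouse target, was 2.22. Taking a gene as above background when 1 of its probe sets exceeded 2.22 on both arrays of a group, 25 of the 39 genes were above background, 19 of 33 measured Hox genes, 3 of 3 measured Meis genes and 3 of 3 measured Pbx genes. At a level of at least 5 on both arrays of a group there were 16, namely 11 Hox genes (Hoxa9, Hoxb3, Hoxb9, Hoxc4, Hoxc5, Hoxc8, Hoxc10, Hoxd3, Hoxd8, Hoxd9 and Hoxd10), Meis1, Meis2, Meis3, Pbx2 and Pbx3. By number, 10 of 11 measured genes numbered 8 to 11 were above background, with Hoxa11 the exception, against 8 of 17 numbered 1 to 7 and 1 of 5 numbered 12 or 13, which was Hoxb13. At a level of at least 5 these counts were 7 of 11, 4 of 17 and 0 of 5. Hoxa10, Hoxc9 and Hoxd11, which are among the 10, did not reach 5 on both arrays of a group. Hoxc9 read 2.62, 2.66 and 2.66 on the arrays other than control array 1, and whether that is signal was not tested. None of the 4 measured genes numbered 1 or 2 and neither of those numbered 7 was above background, while all of those numbered 3 (3 genes), 8 (2), 9 (4) and 10 (3) were.

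By cluster, 4 of 9 measured Hoxa genes, 4 of 9 Hoxb genes, 6 of 7 Hoxc genes and 5 of 8 Hoxd genes were above background. In the Hoxd cluster the measured genes from Hoxd3 to Hoxd11 (Hoxd3, Hoxd8, Hoxd9, Hoxd10 and Hoxd11) were all above background. Hoxd11 read 4.60 on each of the 3 arrays other than control array 1, with a spread of 0.00299. Probe sets not above background had a median range of 0.014 over the 4 arrays. Whether the Hoxd11 readings on those 3 arrays are signal was not tested. Hoxd12 and Hoxd13 were at 2.16 or lower on every array, and Hoxd1 was not above background. Hoxd4, which falls between Hoxd3 and Hoxd8 by number, was not analysed here. In the Hoxa cluster Hoxa9 and Hoxa10 were above background and their neighbours Hoxa7 and Hoxa11 were not. In the Hoxb cluster Hoxb9 stood above background while Hoxb5, Hoxb6 and Hoxb7 did not. A level depends on how well a probe set binds as well as on the amount of RNA, so levels of different genes are not ranked here, and a level at background says only that these probes gave no signal. Other Hox and Pbx genes are not analysed here. The 3 probe sets that carry the symbols of both Hoxd3 and Hoxd4 or both Hoxb7 and Hoxb8 were not used.

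**Figure D1:**
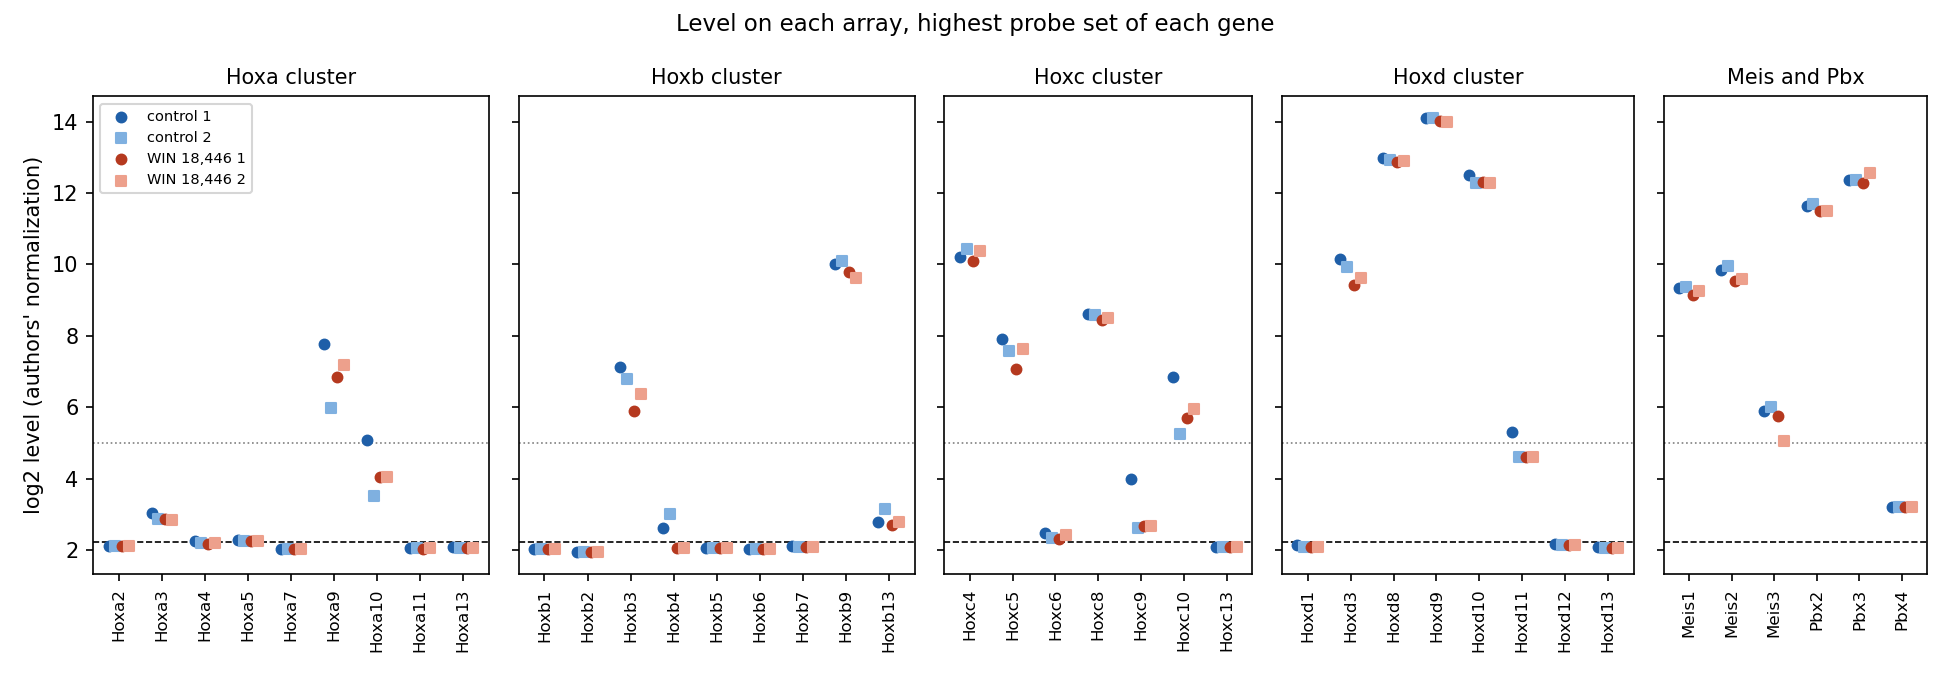
Log2 level on each of the 4 arrays (y axis) for the probe set of highest mean of each gene (x axis), in panels by cluster. The dashed line marks background (2.22) and the dotted line the level of 5 used as the filter for tests. Hoxd8, Hoxd9 and Hoxd10 lie above 12 on every array, and the 4 measured genes numbered 1 or 2 lie below the dashed line.

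The DNA just upstream of these genes was examined because the compound under test lowers the supply of retinoic acid. RefSeq start sites were matched by symbol for 24 of the 39 genes, giving 26 windows of 250 bases before a start, and for 10 of the 16 tested genes, all but Hoxb3, Hoxb9, Hoxc5, Hoxc8, Hoxc10 and Pbx3. The half-site AGGTCA, on either strand, was present in 5 of the 26 windows (19.2%), those of Hoxb4, Hoxc4, Hoxd3, Hoxd8 and Hoxd10, against 14.0% of 32851 mouse windows of the same length. The variant AGTTCA was present in 3 (11.5%), those of Hoxc4, Hoxd13 and Meis3, against 11.8% of all windows. None of the 26 held a pair of these half-sites repeated in the same direction with 5 bases between them, spelled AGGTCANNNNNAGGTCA, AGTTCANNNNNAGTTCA, AGGTCANNNNNAGTTCA and AGTTCANNNNNAGGTCA on both strands. These longer motifs contain the half-sites, and the first was found in 3, the second in 7, the third in 0 and the last in 1 of the 32851 windows. The letters TGATNNAT, a site of Hox and Pbx dimers, were in 3 windows (11.5%, against 7.68%), those of Hoxa2, Hoxb1 and Hoxd11, and TGACAG, the site of Meis proteins, in 2 (7.69%, against 15.9%), those of Hoxa2 and Hoxa3. The 4 windows of tested genes that hold AGGTCA are shown 5′ to 3′ on the gene's strand, from RefSeq's GRCm38.p6, with half-sites of either kind in capitals; TGACCT is AGGTCA and TGAACT is AGTTCA read on the other strand.
Hoxd3, chr2:74711743-74711992, + strand: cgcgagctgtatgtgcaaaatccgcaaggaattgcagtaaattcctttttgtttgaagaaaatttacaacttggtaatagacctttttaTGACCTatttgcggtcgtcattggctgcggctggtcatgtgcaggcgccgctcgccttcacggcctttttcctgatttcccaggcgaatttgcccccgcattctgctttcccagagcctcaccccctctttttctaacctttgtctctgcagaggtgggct
Hoxd8, chr2:74704365-74704614, + strand: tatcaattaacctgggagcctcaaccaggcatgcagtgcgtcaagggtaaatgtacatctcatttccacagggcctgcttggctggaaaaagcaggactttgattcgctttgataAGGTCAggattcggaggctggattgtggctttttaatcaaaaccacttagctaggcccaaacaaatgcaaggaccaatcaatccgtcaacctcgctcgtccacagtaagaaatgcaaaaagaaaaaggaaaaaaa
Hoxd10, chr2:74691641-74691890, + strand: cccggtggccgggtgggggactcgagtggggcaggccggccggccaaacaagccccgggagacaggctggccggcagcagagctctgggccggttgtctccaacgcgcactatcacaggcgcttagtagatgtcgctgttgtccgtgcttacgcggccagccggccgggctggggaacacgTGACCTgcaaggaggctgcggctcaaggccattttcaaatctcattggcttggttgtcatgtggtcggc
Hoxc4, chr15:103034145-103034394, + strand: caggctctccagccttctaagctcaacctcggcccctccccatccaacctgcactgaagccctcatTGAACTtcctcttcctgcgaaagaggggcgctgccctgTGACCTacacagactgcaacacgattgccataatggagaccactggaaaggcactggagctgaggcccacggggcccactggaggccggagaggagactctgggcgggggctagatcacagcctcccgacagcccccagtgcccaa
The AGGTCA half-site begins 161 bases before the start in Hoxd3, 135 in Hoxd8, 69 in Hoxd10 and 146 in Hoxc4, where an AGTTCA half-site begins 184 bases before the start. A match to these letters describes the sequence and is no evidence of a bound receptor. The absence of a pair is likewise no evidence that a gene lacks such an element. Only 250 bases and a spacing of 5 were searched, and such pairs were rare in all windows.

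The comparison asks whether a day with the inhibitor altered the transcripts of these genes. None of the tested members passed the test for a difference between treated and control testes. Of the 63 probe sets, 23, belonging to 16 genes, averaged 5 or more across the 4 arrays and were tested in a fit over all 20895 probe sets that did. In limma, with Benjamini-Hochberg adjustment over the 20895, 0 of the 23 were called at an adjusted p under 0.05, against 5.18% of all tested probe sets (2.27% higher and 2.91% lower). The lowest adjusted p was 0.0798, for a probe set of Pbx2. At an adjusted p under 0.10 it was the 1 call, against 10.6% of all. At an unadjusted p under 0.05, 5 of the 23 were lower, probe sets of Hoxb3, Hoxd3, Meis1 and Pbx2 (2 of its 3), against 12.1% of all tested probe sets, and 0 were higher, against 9.92%. No member differed by 1 log2 unit or more, a size reached by 5.31% of all.

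The differences lay mostly a little below 0. With WIN 18,446, 18 of the 23 probe sets had a difference below 0, against 53.5% of all tested, and the median difference was -0.19 against -0.018 for all. Both treated arrays lay below both control arrays in 14 of 23, against 29.3% of all, and above them in 1, against 23.8%. By group, 11 of 12 Hox probe sets, 4 of 6 Meis probe sets and 3 of 5 Pbx probe sets were below 0. Probe sets of 1 gene share its transcripts, so these counts are not counts of independent genes. In whole testes, fewer cells of a type and less RNA per cell cannot be told apart. Markers of several somatic cells had lower sums on the treated arrays. The summed log2 levels of 9 of 9 Sertoli cell markers were 109.6 and 109.9 on the control arrays and 106.3 and 104.2 on the treated arrays, those of 10 of 11 peritubular and stromal markers 108.5 and 109.6 against 105.9 and 106.4, and those of 7 of 7 endothelial markers 50.3 and 53.1 against 46.6 and 46.2. Those of 8 of 8 germ cell markers were 71.5 and 71.6 against 71.8 and 71.5. Genes within a list went different ways. The Sertoli hormone gene Amh read 9.37 and 9.85 with vehicle and 11.12 and 10.60 with the compound, although the sum of its list was lower. The intermediate filament gene Des read 7.53 and 7.91 against 6.28 and 6.21, a larger drop than that of any other measured peritubular and stromal marker, while Pdgfra read 14.34 and 14.31 against 14.33 and 14.28. The germ cell gene Sall4 read 13.55 and 13.50 against 12.93 on both treated arrays. The part of cell makeup in the Hox, Meis and Pbx values was not tested. Of these markers the smooth muscle gene Cnn1 and the germ cell gene Dppa3 were at background on all arrays.

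**Figure D2:**
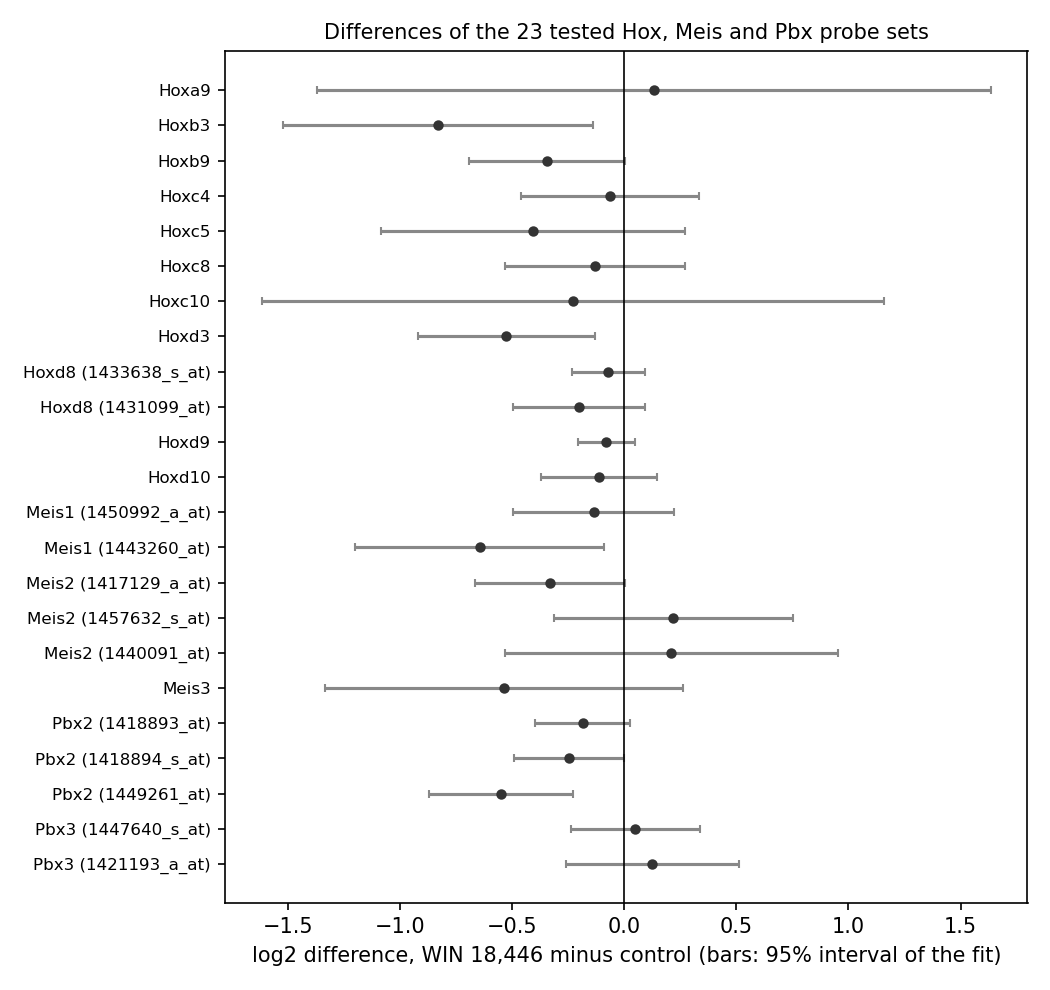
Log2 difference, WIN 18,446 minus control (x axis), for each of the 23 tested probe sets, with the 95% interval of the limma fit on 2 arrays per group. The intervals of Hoxb3, Hoxd3, 1 of 2 Meis1 and 2 of 3 Pbx2 probe sets lie wholly below 0, and none is called after adjustment.

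**Figure D3:**
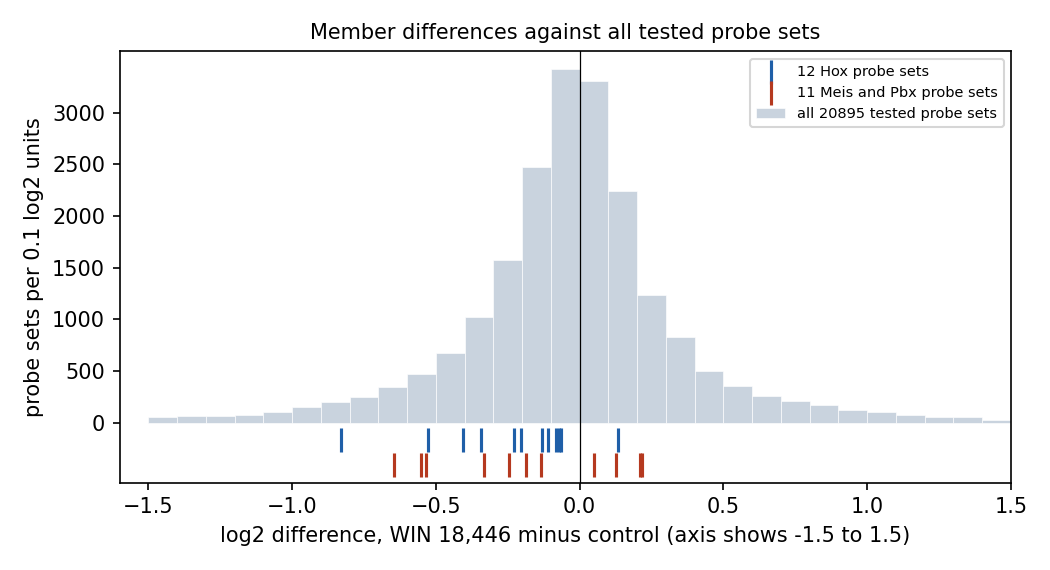
Number of the 20895 tested probe sets per 0.1 log2 units of difference (bars), with a tick for each of the 12 Hox probe sets and 11 Meis and Pbx probe sets below the axis. The ticks run from -0.83 to 0.22, and the lowest of them reach into the lower tail of the bars.

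Hoxb3 and Hoxd3, paralogues that pattern the hindbrain and the neck, had the lowest differences among the tested low-numbered Hox genes, and neither was called. Hoxb3 read 7.12 and 6.80 on the control arrays and 5.88 and 6.38 with treatment. The treated arrays did not overlap the controls, and the log2 difference was -0.83 (SE 0.27, 95% interval -1.52 to -0.14, limma adjusted p = 0.166). Its other probe set, 1427605_at, was at background on all arrays, between 2.07 and 2.09. Hoxd3 read 10.15 and 9.94 with vehicle and 9.41 and 9.62 with the compound, again without overlap, a log2 difference of -0.53 (SE 0.15, 95% interval -0.92 to -0.13, limma adjusted p = 0.135). The noncoding gene Hoxd3os1, annotated beside it, read 8.16 and 9.002 on the control arrays and 8.42 and 7.80 on the treated arrays, where the groups overlapped. Hoxa3 was under the filter in all 4 of its probe sets. The brightest read 3.03 and 2.87 against 2.87 and 2.83, and 1427433_s_at read 3.61 and 2.63 against 2.39 and 2.36.

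Hoxc4 and Hoxc5, neighbours whose transcripts can overlap, were not called. Hoxc4 read 10.20 and 10.42 with vehicle and 10.11 and 10.39 with WIN 18,446, and the groups overlapped. Its log2 difference was -0.065 with a 95% interval of -0.46 to 0.33, so a fall beyond 1.38-fold lies outside the interval. Hoxc5 read 7.92 and 7.58 against 7.07 and 7.62, a log2 difference of -0.41 (95% interval -1.08 to 0.27) with overlapping groups. Leaving out treated array 1 or 2 moved it to -0.13 or -0.68, and leaving out control array 1 to -0.24. The other 2 Hoxc5 probe sets were at background, at 2.16 or lower. Hoxb4 was not tested. It read 2.62 and 3.02 on the control arrays and 2.04 on both treated arrays, which lay below background. The mean of the control arrays was 1.52-fold above the background level of 2.22. The control arrays differed and the readings lie near the floor, so no size of fall is given. Hoxb4 was the only member above background in 1 group and not in the other. Its second probe set read 2.00 to 2.02 on all arrays.

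The Hoxd genes numbered 8 to 10 had differences below 0 with intervals that spanned 0, narrowest for Hoxd9 and the brighter Hoxd8 probe set. Hoxd8 read 12.97 and 12.93 on the control arrays and 12.87 and 12.90 on the treated arrays, a log2 difference of -0.071 (95% interval -0.23 to 0.090). Its other probe set, 1431099_at, read 11.93 and 11.77 against 11.54 and 11.76, a difference of -0.20 (95% interval -0.50 to 0.092), which was -0.091 without treated array 1, -0.31 without treated array 2 and -0.12 without control array 1. In both probe sets the treated arrays lay below the controls. Hoxd9, which with its paralogues patterns the lower trunk and the limb, read 14.09 on both control arrays and 14.03 and 13.99 with treatment. The treated arrays lay below the controls by little: the log2 difference was -0.081 (SE 0.050, 95% interval -0.21 to 0.046, limma adjusted p = 0.423), and a change larger than 1.15-fold lies outside the interval. Hoxd10 read 12.51 and 12.27 with vehicle and 12.30 and 12.26 with the compound, a difference of -0.11 (95% interval -0.37 to 0.15). The lowest control array lay between the treated arrays.

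Hoxb9 and Hoxc8, genes of the trunk region, were likewise not called. Hoxb9 read 10.00 and 10.08 on the control arrays and 9.79 and 9.60 on the treated arrays, without overlap, a log2 difference of -0.34 (SE 0.14, 95% interval -0.69 to 0.0049, limma adjusted p = 0.232). Hoxc8 read 8.61 and 8.57 against 8.43 and 8.49, also without overlap, with a difference of -0.13 (95% interval -0.53 to 0.27). For both genes the gap between the groups was wider than the gap within either group.

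Several Hox genes numbered 9 to 11 were higher on control array 1 than on every other array. Some lower-numbered genes were too. The Hoxa3 probe set 1427433_s_at read 3.61 there against 2.63, 2.39 and 2.36 on the others. Hoxb3, Hoxc5 and Hoxd3 were also highest on that array, by less. Hoxa9 read 7.76 on control array 1, 5.99 on control array 2, and 6.84 and 7.17 on the treated arrays. Hoxc10 read 6.85 and 5.25 with vehicle and 5.69 and 5.95 with the compound. In both genes the treated arrays lay between the 2 controls, and their log2 differences, 0.13 for Hoxa9 (95% interval -1.37 to 1.64) and -0.23 for Hoxc10 (95% interval -1.62 to 1.16), had intervals that reach a 3.11-fold change for Hoxa9 and a 3.07-fold change for Hoxc10. Among the 23 tested members these 2 read at least 1 log2 unit higher on control array 1 than on control array 2, against 0.440% of all tested probe sets. No tested member differed by that much in either direction between the treated arrays, against 3.20% of all. The share for the control arrays counts 1 direction only, so these 2 shares are not comparable. Without control array 1 the difference was 1.02 for Hoxa9 and 0.57 for Hoxc10, and without control array 2 it was -0.75 and -1.03.

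The same array was the highest for several genes below the filter, though not for all. Hoxb4 read 2.62 on control array 1 and 3.02 on control array 2. The highest Bacillus subtilis control reading was 2.22 on control array 1 and 2.17 to 2.18 on the other arrays. Hoxa10, which is needed for descent of the testis, read 5.08 and 3.52 with vehicle and 4.05 and 4.04 with WIN 18,446. Hoxc9 read 3.98 on control array 1 and 2.62, 2.66 and 2.66 on the others. Hoxd11 read 5.30 there and 4.60 on each of the other 3 arrays, with a spread of 0.00299 among those 3, which were set apart after their values were seen. The range of Hoxd11 over all 4 arrays was 0.70. The 29 member probe sets not above background had a median range of 0.01 over the 4 arrays (highest 0.19), and the smallest range among tested members was 0.10. Hoxb9, Hoxd9 and Hoxb13 were not higher on control array 1, at -0.081, -0.0031 and -0.36 relative to control array 2. The summed log2 level of 8 of 10 markers of mesonephric, epididymal and duct epithelium was 44.4 on control array 1, 47.3 on control array 2 and 44.1 and 44.9 on the treated arrays. In that list the control arrays differed most in Pax8, at 2.16 and 3.87. Its markers Cdh16 and Lcn5 were at background on all arrays. The part of these tissues in the Hox readings was not tested. The summed level of 4 of 6 Leydig cell markers was 48.6 on control array 1 against 47.1, 47.0 and 45.8 on the others, and its part in these readings was not tested.

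**Figure D4:**
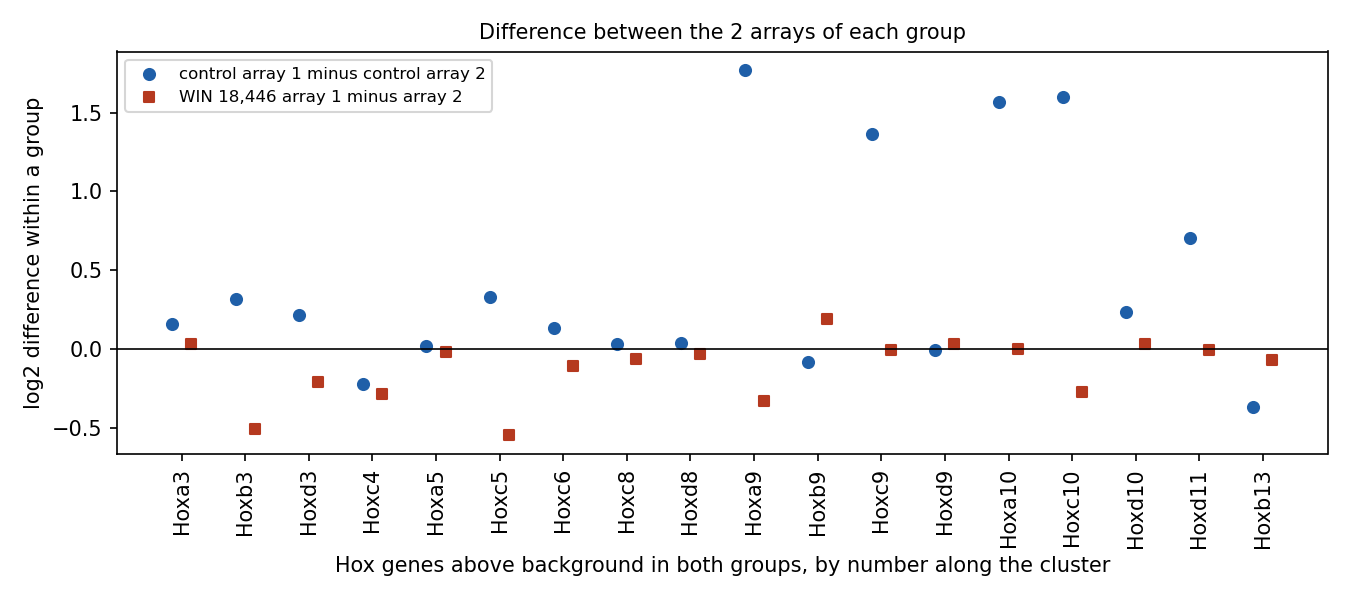
Log2 difference between the 2 arrays of each group (y axis), for the brightest probe set of the 18 Hox genes above background in both groups, ordered by number (x axis). Blue points are control array 1 minus control array 2 and red squares treated array 1 minus treated array 2. Hoxa9, Hoxc9, Hoxa10 and Hoxc10 stand 1.36 to 1.77 above 0 in the controls, and no treated pair differs by more than 0.54.

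The remaining Hox genes carried little or no signal. Hoxb13 read 2.79 and 3.16 against 2.71 and 2.78, and Hoxc6 2.49 and 2.35 against 2.32 and 2.42 in its brightest probe set. Hoxa5 read between 2.25 and 2.27 on all arrays, just above background and with a range of 0.02, as narrow as that of probe sets below it. The other 14 genes were not above background in any probe set: Hoxa2, Hoxa4, Hoxa7, Hoxa11, Hoxa13, Hoxb1, Hoxb2, Hoxb5, Hoxb6, Hoxb7, Hoxc13, Hoxd1, Hoxd12 and Hoxd13. They include Hoxb1, the hindbrain gene known for its retinoic acid response elements, at 2.03 to 2.04, and Hoxa13 and Hoxd13, genes of the genital tubercle and digits, at 2.05 to 2.08. Over the 29 member probe sets not above background the readings ran from 1.94 to 2.24.

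Of the cofactors, Pbx2, a broadly expressed Pbx gene, came nearest to the threshold. Its probe set 1449261_at read 9.98 and 9.97 on the control arrays and 9.41 and 9.44 with treatment. The groups were well apart, with a log2 difference of -0.55 (SE 0.13, 95% interval -0.87 to -0.23, limma adjusted p = 0.0798). The probe set of highest mean, 1418893_at, read 11.65 and 11.69 against 11.48 and 11.48, a smaller difference of -0.19 (95% interval -0.40 to 0.026, limma adjusted p = 0.278). The remaining one, 1418894_s_at, read 11.55 and 11.59 against 11.25 and 11.39, a difference of -0.25 (95% interval -0.49 to -0.0014, limma adjusted p = 0.225). All 3 probe sets had both treated arrays below both controls, with sizes that differed. Pbx3 leaned the other way in both of its probe sets and the groups overlapped. Its brightest read 12.37 and 12.36 against 12.27 and 12.55, a difference of 0.049 (95% interval -0.24 to 0.34), and the other read 10.23 and 10.25 against 10.20 and 10.54, a difference of 0.12 (95% interval -0.26 to 0.51). Pbx4, known for its expression in the testis, was not tested: its brighter probe set read 3.21, 3.20, 3.20 and 3.21, a range of 0.01 that is no wider than at background.

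The Meis genes were measured by several probe sets that did not all lean the same way. Meis1, a partner of Hox proteins in blood stem cells and the limb, read 9.33 and 9.35 with vehicle and 9.15 and 9.26 with WIN 18,446 in its brightest probe set, a log2 difference of -0.14 (95% interval -0.50 to 0.22). Its probe set 1443260_at read 6.43 and 6.65 against 5.86 and 5.93, a difference of -0.64 (SE 0.22, 95% interval -1.20 to -0.090, limma adjusted p = 0.176). The groups did not overlap in either, whereas the third, 1459423_at, read 3.86 and 3.698 against 4.46 and 3.98, lay above the controls and was below the filter. Meis2, a gene that retinoic acid induces in cultured embryonal carcinoma cells, read 9.84 and 9.96 against 9.54 and 9.60 in 1417129_a_at, a difference of -0.33 (95% interval -0.67 to 0.0018, limma adjusted p = 0.229) without overlap. Its other tested probe sets lay above 0: 1457632_s_at read 7.94 and 7.56 against 7.95 and 7.99 (difference 0.22, 95% interval -0.32 to 0.75), and 1440091_at read 7.26 and 7.93 against 7.63 and 7.98 (difference 0.21, 95% interval -0.53 to 0.95). Without control array 2 the first of these was 0.026 and without control array 1 it was 0.41, while the second was -0.12 without control array 1. The Meis2 probe sets lay on both sides of 0, and no direction is given for the gene. Meis3 read 5.88 and 5.995 against 5.77 and 5.04, a difference of -0.54 (95% interval -1.33 to 0.26). Treated array 2 lay furthest from the controls, and without it the Meis3 difference was -0.17.

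Genes around these members are given by list, each gene by its tested probe set of highest mean. Of 5 tested genes among 13 other TALE homeodomain genes, 0 were called in limma, 1 had an unadjusted p under 0.05 and the median difference was 0.092. The nearest to the threshold was Tgif2, a repressor of TGF-beta signalling, at 12.20 on both control arrays and 11.84 and 11.81 on the treated arrays (limma adjusted p = 0.059). Of 31 tested genes of 43 that regulate Hox clusters, mainly Polycomb and trithorax genes, 1 rose, 0 fell and 30 were not called, with a median of 0.017. Over all tested probe sets 2.27% rose, 2.91% fell and 5.18% were called in either direction. Those shares count every tested probe set, whereas the list holds 1 per gene. With 1 probe set per gene the fit called 1208 of 10970, a larger share. The gene that rose was Egr2, a zinc finger factor that activates Hox genes in the hindbrain and is also an immediate early gene, from 10.14 and 10.27 to 10.94 and 11.21 (log2 difference 0.86, limma adjusted p = 0.0376). Gmnn, which encodes the replication inhibitor geminin, and Ezh2, the Polycomb methyltransferase, differed by 0.60 and 0.54 and were not called (limma adjusted p = 0.0539 and 0.0575).

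Of 43 genes beside or inside the Hox clusters, 21 were tested, 0 rose, 1 fell and 20 were not called, with a median of -0.041. Over all tested probe sets, which are not 1 per gene, 5.18% were called. The one that fell was Nfe2, a transcription factor of erythroid and megakaryocyte cells whose gene lies near the Hoxc cluster, from 7.68 and 6.91 to 4.64 and 3.95 (log2 difference -2.998, SE 0.39, limma adjusted p = 0.0253). On the same arrays the summed level of 3 of 5 erythroid markers was 14.5 and 14.3 with vehicle and 12.6 and 13.4 with the compound, with Hba-a1 and Alas2 at background, and its part in the Nfe2 value was not tested. Hoxc4, Hoxc8 and Hoxc10, in that cluster, differed by -0.065, -0.13 and -0.23, and Hoxc5 by -0.41. Of 12 genes reported elsewhere as targets of Hox, Meis or Pbx factors, 7 were tested. Bmp7, a bone morphogenetic protein, rose from 6.66 and 6.76 to 7.95 and 8.62 (log2 difference 1.58, limma adjusted p = 0.0444), and 6 were not called, with a median over the 7 of -0.048. Over all tested probe sets 5.18% were called, and 1 call among 7 genes is too few to set against that share.

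Other homeobox and patterning genes of the urogenital region included 4 calls. Of 18 tested genes among 34, 3 fell, 1 rose and 14 were not called, with a median of -0.12, against 2.91% of all tested probe sets that fell and 2.27% that rose. Those shares count every tested probe set, whereas the list holds 1 per gene. A fit with 1 probe set per gene called 1208 of 10970, a larger share. Wnt4, a signal of kidney and ovary development, fell from 9.64 and 9.62 to 7.29 and 6.92 (log2 difference -2.52, SE 0.20, limma adjusted p = 0.0109). Gata6 and Wt1, transcription factors of the gonad, fell by 0.84 and 0.58 on the log2 scale (limma adjusted p = 0.0311 and 0.0374), and Six4, a homeobox gene of the early gonad and kidney, rose from 7.47 and 7.32 to 8.78 and 8.43 (limma adjusted p = 0.0421). Whether this list differs from the Hox, Meis and Pbx genes was not tested.

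The 4 arrays had median log2 levels of 3.72 to 3.83, and between 46.4% and 46.6% of probe sets reached 5. Pearson's r across the tested probe sets, which are not independent replicates, was 0.992 for the control pair, 0.985 for the treated pair and 0.964 to 0.976 across the groups. Sertoli cell markers were all above background (9 of 9 at a mean of 5 or more), as were 6 of 8 germ cell markers at that level. The skeletal muscle genes Myod1, Myog and Ckm were at background. They belong to a list of neural and muscle markers whose other measured genes, Tubb3 and Sox10, were above it. Tubb3 read 12.80 and 12.87 with vehicle against 13.05 and 12.87 with the compound, and Sox10 4.75 and 3.98 against 2.80 and 2.73.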

How the data were processed

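The deposited value table holds log2 levels of 45101 probe sets on 4 arrays, which the authors had normalized. RMA and GCRMA, background correction and normalization methods, are named in the submitters' processing notes, with no version and no word on which made the table. The scale was read from the values. Low levels pile up just above 2, so differences between them are compressed. Symbols were taken from GEO's array annotation. The 64 array control probe sets were left out.

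The 20895 probe sets averaging 5 or more were fitted with limma 3.58.1 in R 4.3.3 (lmFit, eBayes with a variance trend, two-sided, Benjamini-Hochberg over all of them), and called at an adjusted p under 0.05. The script was also tested on simulated data. With 2 arrays against 2, an exact permutation test cannot go below 0.333, so none was run. The number of arrays limits the precision. Values are given for every tested member, and up to 3 genes per other list are named by smallest p; Hoxb4, Hoxc9, Hoxa10, Hoxd11 and further untested members, Hoxd3os1, Six4 and the marker genes were picked after their values were seen. The members and lists were chosen with earlier results of these data known.

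Samples of equal number were checked for pairing: over the tested probe sets, the deviations of same-numbered arrays from their group means correlated at 0.014, so the numbers were not taken to pair the samples. Alternatives were other level filters, normalizations, moderation and background levels, a replicate block, 1 probe set per gene and each array left out in turn. One of them, each array's own background level, was added after the values were seen.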

Additional observations from a re-analysis of the deposited data

How the results depend on the processing

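No member was called by limma in any of the 13 other fits (the level filter dropped, raised to a mean of 7 or set at 2 of 4 arrays reaching 5; quantile normalization repeated; array medians equalised; robust moderation; moderation without a trend; the replicate block; 1 probe set per gene; and each of the 4 arrays left out), so the count of calls was 0 in each. With the replicate block the count of member calls was 0, the lowest adjusted p was 0.12 (Pbx2), and the number of calls over all probe sets rose from 1083 to 1467. At an adjusted p under 0.10, 1 member, Pbx2, was called. Without the level filter the fit called only 3 of 45037 probe sets, and without a variance trend 372 of 20895. A member count of 0 therefore says little in those fits. The fits without control array 1 and without control array 2 called 0 probe sets of any gene, so they say little about members, of which 2 and 3 had an unadjusted p under 0.05 there. The median member difference of -0.19 was -0.15 and -0.22 with values quantile normalized again and with equal array medians, which put the median of all tested at 0.0013 and -0.06. It was -0.01 over all 63 members without the level filter, where 54 were below 0, and ran from -0.23 to -0.10 when each array was left out. Among the fits, the sign of a tested member turned only when an array was left out. The differences then ran from -0.75 (without control array 2) to 1.02 (without control array 1) for Hoxa9, with -0.030 without treated array 2, and from -1.03 (without control array 2) to 0.57 (without control array 1) for Hoxc10. They ran from -0.21 to 0.076 for Hoxc4, which was positive without control array 2 (0.044) or treated array 1, from -0.23 to 0.0069 for Hoxd10, positive without control array 1, and from -0.12 to 0.54 for Meis2 1440091_at, negative without control array 1. For Pbx3 they ran from -0.095 to 0.19 in 1447640_s_at and from -0.043 to 0.29 in 1421193_a_at, both negative without treated array 2. The 25 genes above background were 19 at a level above 3, 18 above 4, 16 at 5 or more, and 24 to 26 under the other settings, a range that also holds when an array is left out (25 to 26). The Hoxa and Hoxb counts, 4 each, were 2 each above 3 and above 4, and 1 and 2 at 5 or more. The causes were not tested.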
